A study of Sus scrofa with 8 samples.

Results

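Urothelial transcription factors were followed in minipig bladder, peritoneum and surgically built neobladders. The set was listed by name as regulators of basal, intermediate and superficial urothelium, with earlier results of these data known. Each gene was found by matching its symbol to a pig Ensembl identifier of the count files. Of 9 listed genes, 8 matched 1 row each among 31907 genes, namely TP63, GATA3, PPARG, FOXA1, GRHL3, KLF5, ELF3 and TBX3. SOX2 was not matched by the name table used and is not analysed here. All 8 passed the low-count filter that left 16549 genes for testing, although TP63 passed through its level in the experimental neobladder and the native bladder alone.

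The libraries were made from Guizhou minipigs aged 8 months, with 2 libraries in each of 4 groups. MN-Exp is mucosa of the neobladder from the experimental group, in which, as the study's title states, autologous peritoneum replaced the mucosa of an ileal neobladder, a urinary reservoir made from small intestine. MN-Ctrl is mucosa of the neobladder from the control group, NP is normal peritoneum and MNB is mucosa of the normal bladder. The labels do not say how the control reservoir was lined, how long after surgery tissue was taken, or whether the 2 libraries of a group came from separate animals, so each p-value measures the spread between these libraries, which may be technical.

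As background, the urothelium is a stratified lining with basal, intermediate and superficial (umbrella) cells. TP63 marks and maintains basal cells, GATA3 and FOXA1 are lineage factors of luminal and intermediate cells, PPARG is a nuclear receptor that drives urothelial differentiation together with them, and GRHL3 is required in mouse for umbrella cell maturation. KLF5 and ELF3 act in urothelium as well but are also factors of intestinal epithelium, and TBX3 is a T-box repressor found in urothelium and in other epithelia and stroma.

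Libraries held 7.94 to 11.9 M counts, and levels are given as counts per M (CPM) scaled between libraries by TMM factors, which were 0.839 and 0.449 in MN-Ctrl and 1.09 to 1.24 elsewhere. A level of 3 counts equals 0.224 to 0.562 CPM on this scale. CPM is not divided by transcript length, so levels are compared within a gene and not between genes. A defining marker gene was read for each tissue. The uroplakin UPK3A stood at 1511 and 1602 CPM in MNB and the mesothelial factor WT1 at 27.7 and 25.3 CPM in NP. The intestinal factor CDX2 stood at 50.6 and 87.5 CPM in MN-Ctrl, whose lining the labels do not give. Of 8 tested mesothelial markers, 6 were higher in NP than in MNB and 1, TCF21, was lower, at means of 2.64 and 36.4 CPM. Over all genes 9.93% were higher and 11.1% lower there. Of 13 tested superficial genes 11 were lower in NP and 0 higher, and the uroplakin UPK1B averaged 441 CPM in NP and 2016 CPM in MNB. In MN-Exp, CDX2 was at 0 counts in both libraries, WT1 had 0 and 0.0927 CPM and UPK3A had 913 and 1604 CPM. The defining mesothelial markers MSLN and UPK3B were not matched to a row, and CALB2 was at 0 counts in every library. In bulk tissue, fewer cells of a type and less RNA per cell cannot be told apart.

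In RefSeq's annotation of Sscrofa11.1, the build of the files, TP63 spans chr13:127115990-127347082 and PPARG chr13:68301566-68433951. GATA3 lies at chr10:63367684-63397977 and ELF3 at chr10:24237852-24242266. GRHL3 is at chr6:82014022-82050240, FOXA1 at chr7:62471233-62479638, KLF5 at chr11:45370009-45386673 and TBX3 at chr14:37582704-37596767. No other gene of that annotation overlaps any of these spans. The annotation lists 9 transcripts of TP63 and 8 of PPARG, and gene-level counts do not separate their isoforms.

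The first comparison set MN-Exp against MN-Ctrl, the contrast between the peritoneum-lined and the control reservoir. Of the 8 factors, 5 were higher in MN-Exp (TP63, GRHL3, GATA3, PPARG and FOXA1), none was lower, and 3 did not pass the test (KLF5, ELF3 and TBX3). Libraries of the groups did not overlap for the 5 and for ELF3, against 60.3% of all genes. Over all genes tested, 21.7% were called in this comparison, 10.4% as higher and 11.3% as lower in MN-Exp. That is 1720 genes higher and 1864 lower, and on library totals alone the split was 2791 higher and 830 lower. The median log2 fold change was 3.89 over the 8 factors and 0.11 over all tested genes, which library totals alone moved to 0.89.

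TP63, the basal cell factor, was close to absent from the control reservoir and from peritoneum. It stood at 32.5 and 36.7 CPM in MN-Exp, at 0.218 and 0 CPM in MN-Ctrl, at 0.306 and 0 CPM in NP and at 31.3 and 47.0 CPM in MNB. Both MN-Exp libraries lay within the MNB range, while MN-Ctrl held 2 TP63 counts in all and NP held 3. The summed and scaled counts were 251-fold higher in MN-Exp than in MN-Ctrl (95% counting interval 69.2 to 2074, adjusted p = 0.000181). They were 242-fold higher in MN-Exp than in NP (82.6 to 1177, adjusted p = 0.000138). These intervals cover counting error only.

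GRHL3, a grainyhead-family factor of umbrella cells and squamous barriers, was likewise high in MN-Exp and MNB alone. It stood at 232.5 and 407 CPM in MN-Exp, 1.20 and 4.68 CPM in MN-Ctrl, 0.204 and 2.85 CPM in NP, and 354 and 200 CPM in MNB. The MN-Exp and MNB libraries interleaved, and so did those of MN-Ctrl and NP. The log2 fold change of MN-Exp over MN-Ctrl was 6.83 ± 1.005 (SE, 95% interval 4.60 to 9.06, adjusted p = 0.00111).

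GATA3 and PPARG shared an order in which peritoneum lay between the extremes. GATA3, a zinc finger factor of luminal urothelium and of T cells, stood at 133 and 198 CPM in MN-Exp, 10.02 and 2.44 CPM in MN-Ctrl, 25.98 and 27.9 CPM in NP, and 147 and 206 CPM in MNB. PPARG, which also directs fat cell differentiation, stood at 291 and 393 CPM in MN-Exp, 14.2 and 27.5 CPM in MN-Ctrl, 54.7 and 33.8 CPM in NP, and 271 and 284 CPM in MNB. For both genes MN-Ctrl was the lowest group and its libraries did not overlap those of NP. The log2 fold change of MN-Exp over MN-Ctrl was 4.69 ± 0.62 for GATA3 (adjusted p = 0.000602) and 4.04 ± 0.50 for PPARG (adjusted p = 0.000388).

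The summed level of 12 T cell markers was 313 and 196.5 CPM in MN-Exp, 560.2 and 872 CPM in MN-Ctrl, 87.5 and 101 CPM in NP, and 200.1 and 189 CPM in MNB, so it was highest in the group where GATA3 was lowest. The adipocyte gene ADIPOQ had 618 and 381 CPM in NP and at most 1.05 CPM in any library of the other groups, and summed adipocyte markers were 56.6 and 69.1 CPM in MN-Exp, 359 and 327 CPM in MN-Ctrl, 1448 and 939 CPM in NP, and 64.0 and 66.0 CPM in MNB. Of MN-Ctrl and NP, NP was the higher in both PPARG and adipocyte markers. The part of T cells in GATA3 and of adipocytes in PPARG was not tested.

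FOXA1, a forkhead pioneer factor, was higher in MN-Exp than in MN-Ctrl and close to 0 in peritoneum. It stood at 275 and 364 CPM in MN-Exp, 41.9 and 5.62 CPM in MN-Ctrl, 0.509 and 0.178 CPM in NP, and 206 and 232 CPM in MNB. No libraries overlapped between MN-Exp and MN-Ctrl, though the MN-Ctrl libraries differed 7.46-fold from each other. The log2 fold change of MN-Exp over MN-Ctrl was 3.73 ± 0.77 (adjusted p = 0.00700). Its relatives FOXA2 and FOXA3, endodermal factors, had no count in any MN-Exp, NP or MNB library, and reached 0.562 and 1.69 CPM in MN-Ctrl replicate 2.

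**Figure D1:**
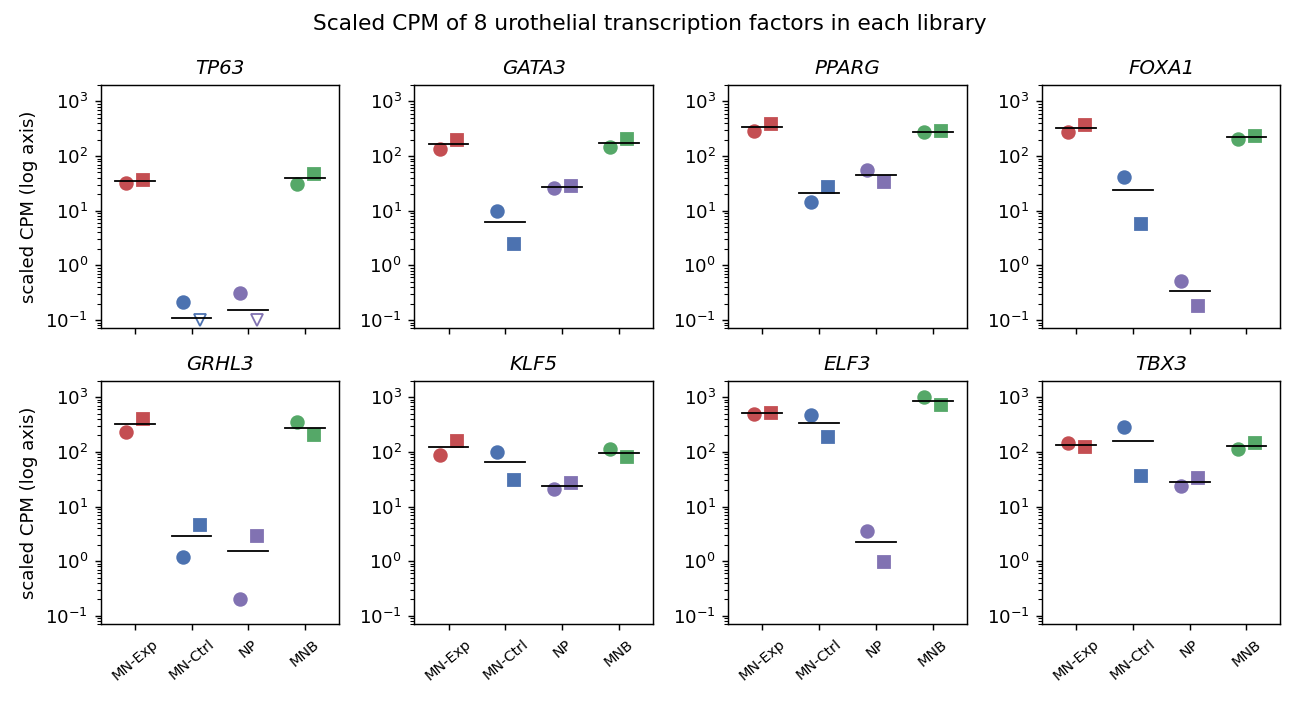
Scaled CPM (log axis) of 8 factors in each library by group. Circles are replicate 1, squares replicate 2, open triangles libraries with 0 counts drawn at 0.1, and lines the group means. TP63, GRHL3, GATA3, PPARG and FOXA1 are high in MN-Exp and MNB and low in MN-Ctrl and NP. KLF5, ELF3 and TBX3 have at least 1 MN-Ctrl library close to or above the MN-Exp libraries.

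KLF5, ELF3 and TBX3 were present in both neobladders. KLF5, a Krüppel-like factor of proliferating and barrier epithelia, stood at 88.8 and 155 CPM in MN-Exp, 99.9 and 30.4 CPM in MN-Ctrl, 21.1 and 27.4 CPM in NP, and 112 and 81.4 CPM in MNB. ELF3, an ETS factor of simple and transitional epithelium, stood at 501 and 509 CPM in MN-Exp, 482 and 187 CPM in MN-Ctrl, 3.57 and 0.980 CPM in NP, and 1000.3 and 707 CPM in MNB. TBX3 stood at 147 and 123 CPM in MN-Exp, 284 and 36.2 CPM in MN-Ctrl, 23.9 and 33.1 CPM in NP, and 113 and 145 CPM in MNB. The MN-Ctrl libraries lay on both sides of the MN-Exp libraries for TBX3, 1 of them lay inside the MN-Exp range for KLF5, and both lay below it for ELF3.

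None of these 3 passed the test between MN-Exp and MN-Ctrl, with log2 fold changes of 0.90 for KLF5 (95% interval -0.29 to 2.08, adjusted p = 0.253), 0.59 for ELF3 (-0.75 to 1.94, adjusted p = 0.513) and -0.24 for TBX3 (-1.79 to 1.31, adjusted p = 0.835). The intervals leave room for a change of more than 2-fold in each gene. The result turned on which control library was kept. Without MN-Ctrl replicate 1, TBX3 was higher in MN-Exp by 1.93 (adjusted p = 0.000690), KLF5 by 2.03 (adjusted p = 0.00203) and ELF3 by 1.46 (adjusted p = 0.0457), while without MN-Ctrl replicate 2, TBX3 was lower in MN-Exp, at -1.06 (adjusted p = 0.0183). A lone control library is assumed in these fits to vary like the other groups.

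The spread between the MN-Ctrl libraries was a feature of most of the factors. Replicate 1 exceeded replicate 2 by 7.85-fold for TBX3, 7.46-fold for FOXA1, 4.11-fold for GATA3, 3.29-fold for KLF5 and 2.58-fold for ELF3. Replicate 2 was the higher of the pair for GRHL3, by 3.91-fold, and for PPARG, by 1.95-fold. Summed markers of any epithelium were 4259 and 2415 CPM in the 2 control libraries, E-cadherin (CDH1) among them at 674 and 93.7 CPM, and fibroblast markers were 2896 and 1590 CPM. Macrophage markers went the other way, at 4216 and 9359 CPM, as did T cell markers, and smooth muscle markers were at 1129 and 1157 CPM. The part of these in the spread of the factors was not tested.

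The second comparison set MN-Exp against MNB, the organ the reservoir replaces. No factor passed edgeR's test, 0 of 8 reached an unadjusted p under 0.05, and DESeq2 also called 0, beside 0.0967% of all genes called, 0.0423% as higher and 0.0544% as lower. Log2 fold changes ran from -0.76 to 0.55, and their 95% intervals together reached from -2.10 to 2.07, so single factors could still differ up to 4.29-fold lower or 4.20-fold higher. Libraries of the groups did not overlap for 37.5% of the factors, against 48.5% of all genes.

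The levels in MN-Exp were then read as a percentage of the MNB mean. TP63 reached 88.4%, GATA3 93.8%, TBX3 105%, GRHL3 115%, PPARG 123%, KLF5 126% and FOXA1 146%. ELF3 reached 59.1%, and both of its MN-Exp libraries lay below both MNB libraries (log2 fold change -0.76, 95% interval -2.10 to 0.59, adjusted p = 0.887). PPARG and FOXA1 were the other 2 genes without overlap, with both MN-Exp libraries above both MNB libraries (adjusted p = 0.972 and adjusted p = 0.965). In MN-Ctrl the same percentages were 0.278% for TP63, 1.06% for GRHL3, 3.53% for GATA3, 7.52% for PPARG, 10.9% for FOXA1, 39.2% for ELF3, 67.2% for KLF5 and 124% for TBX3.

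The third comparison set MN-Ctrl against MNB. TP63, GRHL3, GATA3, PPARG and FOXA1 were lower in MN-Ctrl, none was higher, and KLF5, ELF3 and TBX3 did not pass, beside 22.3% of all genes called, 11.2% as higher and 11.1% as lower. This comparison shares its control reservoir with the first and is no separate evidence. TP63 counts were 287-fold lower in MN-Ctrl (95% counting interval 79.1 to 2370, adjusted p = 0.000148), and GRHL3 had a log2 fold change of -6.62 ± 0.997 (adjusted p = 0.00129). ELF3 was nearest to the threshold among the other 3, at -1.35 ± 0.61 (adjusted p = 0.137). Without MN-Ctrl replicate 1 these 3 stood at -2.21 for ELF3, -1.69 for KLF5 and -1.85 for TBX3. Without MN-Ctrl replicate 2 they stood at -0.83, 0.0427 and 1.14. Each of these fits rests on a lone control library. FOXA1 lost its call with the 2 groups alone (adjusted p = 0.0562), and ELF3 was called with no filter (adjusted p = 0.0411).

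**Figure D2:**
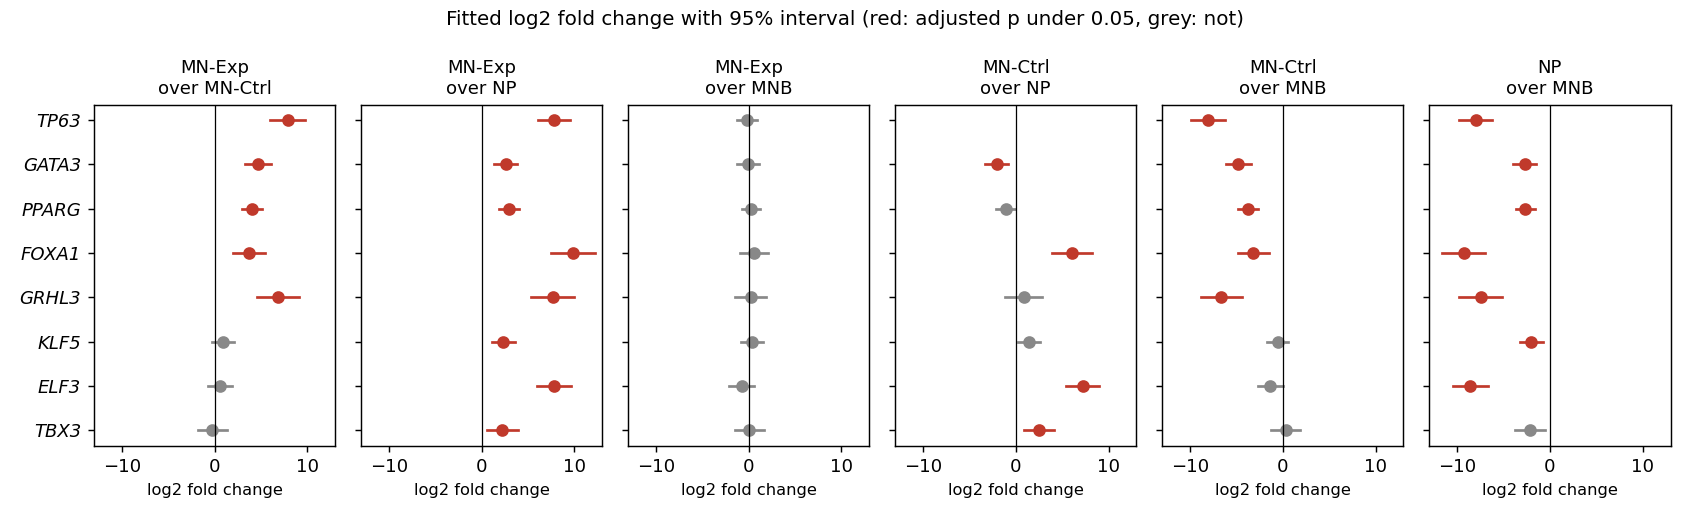
Fitted log2 fold change (x axis) with its 95% interval for each factor in 6 comparisons, with red for an adjusted p under 0.05 and grey otherwise. TP63 is left out of MN-Ctrl over NP, where both groups had at most 3 counts. The column MN-Exp over MNB holds only grey points, between -0.76 and 0.55.

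Peritoneum, the tissue used as lining, was set against the mucosa that lined the experimental reservoir. All 8 factors were higher in MN-Exp than in NP, beside 24.2% of all genes called and 12.4% called as higher, and none overlapped between the groups, against 71.3% of all genes. The log2 fold change was 9.84 ± 1.07 for FOXA1 (adjusted p = 0.000186), 7.80 ± 0.83 for ELF3 (adjusted p = 0.000161), 7.67 ± 1.04 for GRHL3 (adjusted p = 0.000602), 2.95 ± 0.47 for PPARG (adjusted p = 0.00154) and 2.62 ± 0.56 for GATA3 (adjusted p = 0.00731). KLF5 followed at 2.33 ± 0.56 (adjusted p = 0.0131) and TBX3 at 2.24 ± 0.73 (adjusted p = 0.0486). On library totals alone TBX3 and KLF5 lost their calls (adjusted p = 0.136 and adjusted p = 0.0637). Without NP replicate 1 or NP replicate 2, GATA3, KLF5 and TBX3 lost their calls, with log2 fold changes between 2.06 and 2.70. KLF5 also lost its call without MN-Exp replicate 2 (adjusted p = 0.0968), and TBX3 without any 1 library of MN-Exp or MNB (adjusted p between 0.0624 and 0.146).

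Against MNB, 7 factors were lower in NP, beside 21.1% of all genes called, 9.93% as higher and 11.1% as lower. All 8 were without overlap between the groups, against 70.0% of all genes. TBX3, at -2.17 ± 0.73, missed the threshold (adjusted p = 0.0589) and passed it with the 2 groups alone (adjusted p = 0.000232), with no filter (adjusted p = 7.44e-05), by DESeq2's test (adjusted p = 0.0132) and without MN-Ctrl replicate 1 or 2 (adjusted p = 4.50e-05 and adjusted p = 3.96e-05). The call of GATA3 ended without either NP library (adjusted p = 0.0606 and adjusted p = 0.0564). That of KLF5 ended without any 1 library of NP or MNB (adjusted p between 0.0611 and 0.153) and on library totals alone (adjusted p = 0.0984). The steepest of the 7 was FOXA1, at -9.30 ± 1.06 (adjusted p = 0.000277), and the least steep KLF5, at -2.00 ± 0.55 (adjusted p = 0.0274). TP63, FOXA1, GRHL3 and ELF3 kept less than 1% of the MNB mean in NP. GATA3 kept 15.3%, PPARG 16.0%, TBX3 22.1% and KLF5 25%. Summed markers of any epithelium fell further, to 72.1 and 144 CPM in NP, against 6400.1 and 4803 CPM in MNB, with 12 of 12 called as lower. Relative to that sum GATA3, PPARG, KLF5 and TBX3 stood higher in both NP libraries than in both MNB libraries, GATA3 at 36.0% and 19.4% of it in NP and 2.30% and 4.29% in MNB, and TBX3 at 33.2% and 23.1% in NP and 1.77% and 3.02% in MNB. Fibroblast markers were 54835 and 73143 CPM in NP, against 14241 and 15984 CPM in MNB.

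MN-Ctrl and NP differed in both directions, with FOXA1, ELF3 and TBX3 higher and GATA3 lower in MN-Ctrl, beside 42.3% of all genes called, 21.6% as higher and 20.6% as lower. ELF3 had a log2 fold change of 7.21 ± 0.81 (adjusted p = 0.000109), FOXA1 6.11 ± 0.98 (adjusted p = 0.000870), TBX3 2.49 ± 0.74 (adjusted p = 0.0213) and GATA3 -2.07 ± 0.56 (adjusted p = 0.0145). TBX3 lost its call without MN-Ctrl replicate 1, at 0.34 (adjusted p = 0.371), without NP replicate 1 (adjusted p = 0.113) or 2 (adjusted p = 0.0720), on library totals alone (adjusted p = 0.117) and with the 2 groups alone (adjusted p = 0.0547). GATA3 lost its call without NP replicate 2 (adjusted p = 0.0679), where GRHL3 was called as higher in MN-Ctrl (adjusted p = 0.0413). KLF5, at 1.43 (adjusted p = 0.0562), was called as higher in MN-Ctrl without MN-Ctrl replicate 2 (adjusted p = 0.000664), with no filter (adjusted p = 0.00647), on DESeq2 size factors (adjusted p = 0.0434) and by DESeq2's test (adjusted p = 0.0212). PPARG, at -1.09 ± 0.45, missed the threshold (adjusted p = 0.0727) and passed it on library totals alone, at -2.16 (adjusted p = 0.00399), and without MN-Ctrl replicate 2, at -1.62 (adjusted p = 0.00333). Neither group held more than 3 TP63 counts, so no ratio is given.

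Because the groups differ in how much epithelium their RNA holds, each factor was also read as a percentage of the summed CPM of 12 markers of any epithelium in its own library, a value that does not depend on scaling. GATA3 came to 2.29% and 2.23% in MN-Exp, 0.235% and 0.101% in MN-Ctrl, and 2.30% and 4.29% in MNB. FOXA1 came to 4.73% and 4.11% in MN-Exp, 0.984% and 0.233% in MN-Ctrl, and 3.21% and 4.83% in MNB. For TP63, GATA3, PPARG, FOXA1 and GRHL3, every MN-Exp library stayed above every MN-Ctrl library on this measure.

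KLF5 came to 1.53% and 1.75% in MN-Exp, 2.34% and 1.26% in MN-Ctrl, and 1.76% and 1.69% in MNB. ELF3 came to 8.61% and 5.74% in MN-Exp, 11.3% and 7.74% in MN-Ctrl, and 15.6% and 14.7% in MNB, so that both MN-Exp libraries lay below both MNB libraries. The libraries of the neobladders overlapped for KLF5 and ELF3 on this measure, and no order is read from it. Whether the choice of markers in the sum matters was not tested.

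**Figure D3:**
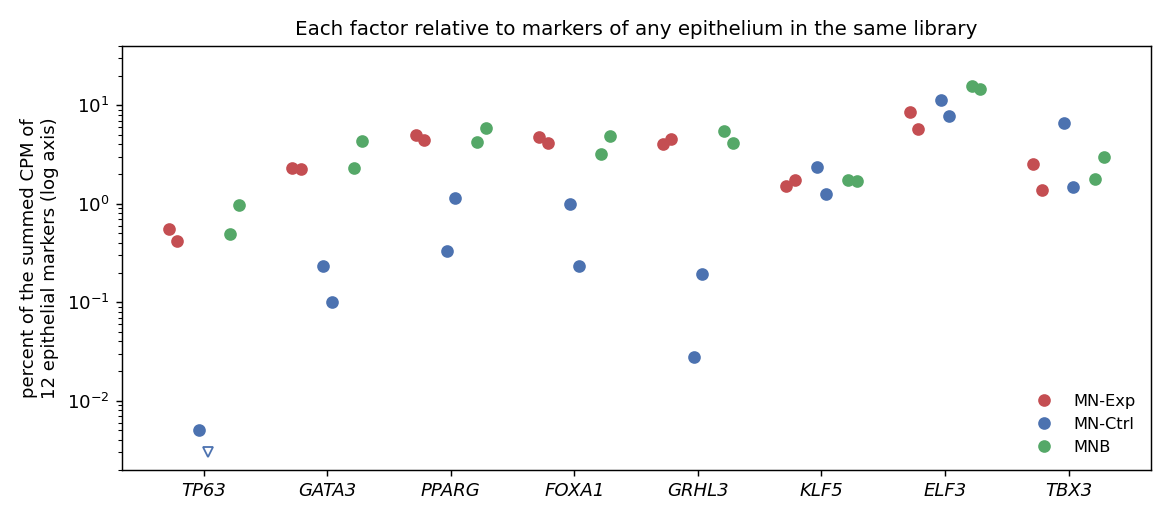
Each factor as a percentage of the summed scaled CPM of 12 markers of any epithelium in the same library (log axis), for MN-Exp, MN-Ctrl and MNB, with 1 point per library and an open triangle for 0 counts. The MN-Ctrl points of TP63, GATA3, PPARG, FOXA1 and GRHL3 lie below all other points of the gene.

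Family relatives and partners of the 8 factors were counted next, from a list of 29 genes of which 25 were tested. Between MN-Exp and MN-Ctrl, 10 were higher and 2 lower, with a median log2 fold change of 1.45. Over all tested genes, 10.4% were called as higher and 11.3% as lower in this comparison. ELF5, an ETS relative of ELF3, stood at 12.7 and 13.2 CPM in MN-Exp and 0.327 and 0.562 CPM in MN-Ctrl (log2 fold change 4.90, adjusted p = 0.000289). The retinoic acid receptor RARG stood at 16.6 and 29.8 CPM in MN-Exp against 0.980 and 1.31 CPM in MN-Ctrl (4.35, adjusted p = 0.000408). TBX2, the closest relative of TBX3, stood at 27.6 and 58.1 CPM in MN-Exp and 2.72 and 3.93 CPM in MN-Ctrl (3.70, adjusted p = 0.000705).

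GATA6, a GATA factor of intestine and mesoderm, went the other way from GATA3. It stood at 4.83 and 9.27 CPM in MN-Exp, 69.5 and 34.3 CPM in MN-Ctrl, 66.4 and 72.8 CPM in NP and 19.4 and 16.7 CPM in MNB, with a log2 fold change of -2.88 between the neobladders (adjusted p = 0.00207). Further relatives are named here for their family, after their values had been seen. GATA2 was higher in MN-Exp by 2.67 (adjusted p = 0.00394) and the grainyhead factor GRHL1 had 152 counts in MN-Exp and 3 in MN-Ctrl, a scaled ratio of 32.6 (95% counting interval 10.9 to 159.7, adjusted p = 0.00213). GRHL2, which is expressed across epithelia, stood at 42.0 and 54.0 CPM in MN-Exp and 22.9 and 4.50 CPM in MN-Ctrl (1.79, adjusted p = 0.0871). EHF, a second epithelial ETS factor, stood at 167 and 167 CPM in MN-Exp and 100.2 and 65.2 CPM in MN-Ctrl (adjusted p = 0.275). RXRA, the partner with which PPARG binds DNA, was higher by 1.45 (adjusted p = 0.0217). Against MNB none of the 25 was called by edgeR, beside 0.0967% of all genes. An unadjusted p under 0.05 was reached by 6, beside 1326 of 16549 over all genes. The smallest p was that of OVOL1, a zinc finger repressor, at 20.2 and 23.1 CPM in MN-Exp and 89.9 and 56.7 CPM in MNB (log2 fold change -1.76, adjusted p = 0.325).

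Genes known to act with or below the factors were then set beside them. Of 15 tested genes of basal epithelium, many of them TP63 targets elsewhere, 6 were higher and none lower in MN-Exp than in MN-Ctrl. Their median log2 fold change was 2.07. The shares called over all genes were 10.4% as higher and 11.3% as lower. SHH, the hedgehog ligand of basal urothelium, stood at 28.3 and 29.95 CPM in MN-Exp and 0 and 0.187 CPM in MN-Ctrl, a ratio of 422.5 with a 95% counting interval of 75.6 to 16710 because MN-Ctrl held 1 count (adjusted p = 0.000136). TRIM29 stood at 47.0 and 98.6 CPM in MN-Exp against 0.327 and 1.69 CPM in MN-Ctrl (log2 fold change 6.33, adjusted p = 0.000837), and the giant cadherin FAT2 at 65.1 and 77.2 CPM in MN-Exp against 0.762 and 0.937 CPM in MN-Ctrl (6.39, adjusted p = 0.00335). The desmosomal cadherin DSG3 stood at 5.34 and 8.81 CPM in MN-Exp, 0.218 and 0 CPM in MN-Ctrl and 0.566 and 1.42 CPM in MNB. It was called between the neobladders (ratio 50.8, 95% counting interval 13.8 to 423, adjusted p = 0.00816) and not against MNB (log2 fold change 2.81, adjusted p = 0.379). The keratins KRT5 and KRT14 were not matched to a row and are not analysed here.

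Over all genes, 10.4% were called as higher and 11.3% as lower in MN-Exp than in MN-Ctrl. Of 13 tested genes of superficial and intermediate urothelium, 10 were higher and 1 lower, with a median log2 fold change of 6.24. The exception was KRT20, a keratin of umbrella cells and of enterocytes, at 1.10 and 1.39 CPM in MN-Exp, 3570 and 1862 CPM in MN-Ctrl and 0.566 and 0.897 CPM in MNB (adjusted p = 2.94e-05 between the neobladders). TGM1, a transglutaminase of barrier epithelia and a GRHL3 target in mouse skin, stood at 37.5 and 53.4 CPM in MN-Exp and 0.762 and 0.562 CPM in MN-Ctrl (log2 fold change 6.04, adjusted p = 0.000104). UPK2, a plaque protein, differed within MN-Exp, at 334 and 1142 CPM, and GRHL3, KLF5, GATA3, PPARG and FOXA1 were likewise higher in replicate 2, by 1.75-fold, 1.74-fold, 1.48-fold, 1.35-fold and 1.32-fold. TP63 and ELF3 were higher there by 1.13-fold and 1.02-fold, and TBX3 was higher in replicate 1, by 1.20-fold. Markers of any epithelium summed to 5813 and 8865 CPM in the same libraries, and their part in these differences was not tested. UPK1A stood at 12.1 and 45.5 CPM in MN-Exp and 90.5 and 103 CPM in MNB (-1.75, adjusted p = 0.556), and involucrin (IVL) at 2058 and 4567 CPM in MN-Exp and 641 and 444 CPM in MNB (2.61, adjusted p = 0.220).

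Known PPARG targets were counted separately. Of 14 tested genes, none was higher and 3 were lower in MN-Exp than in MN-Ctrl, a share close to the 21.7% called over all genes, with a median log2 fold change of -0.55, while PPARG itself was higher. The median of all genes moved to 0.89 on library totals alone, where the median of this list was not computed. No direction is read for the list as a whole. The 3 were lipoprotein lipase (LPL), at 3.31 and 3.99 CPM in MN-Exp and 203 and 68.6 CPM in MN-Ctrl (adjusted p = 0.000334), the lipid droplet gene CIDEC, at 1.02 and 0.0927 CPM in MN-Exp against 68.0 and 44.4 CPM in MN-Ctrl (adjusted p = 0.000414), and the kinase PDK4, at 3.56 and 3.71 CPM in MN-Exp against 62.0 and 17.2 CPM in MN-Ctrl (adjusted p = 0.00319). The targets were established mostly in fat, and several are also enterocyte or muscle genes. Against MNB none of the 14 was called by edgeR, beside 0.0967% of all genes. An unadjusted p under 0.05 was reached by 4, beside 1326 of 16549 over all genes. LPL stood at 3.31 and 3.99 CPM in MN-Exp and 22.3 and 27.6 CPM in MNB (log2 fold change -2.77, adjusted p = 0.144). PLIN2, a lipid droplet coat gene, stood at 517 and 713 CPM in MN-Exp and 202 and 230 CPM in MNB (log2 fold change 1.51, adjusted p = 0.310).

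Intestinal transcription factors ran opposite to the urothelial set. Of 17 tested, 13 were lower and none higher in MN-Exp than in MN-Ctrl, with a median log2 fold change of -5.32. By comparison, 11.3% of all genes were called as lower and 10.4% as higher. The caudal factor CDX2, at 0 counts in MN-Exp, was at least 483-fold lower, and ATOH1, the secretory lineage factor, was at least 302-fold lower, where the group at 0 is set to 3 counts over its libraries. The nuclear receptor HNF4A stood at 7.80 and 8.16 CPM in MN-Exp, 252 and 129 CPM in MN-Ctrl and 9.69 and 6.13 CPM in MNB. KLF4, named after its values had been seen, was not called, at 27.3 and 35.6 CPM in MN-Exp and 33.1 and 33.2 CPM in MN-Ctrl (log2 fold change -0.08, 95% interval -0.86 to 0.71). Among mesothelial markers tested, 2 of 8 were higher and 1 lower in MN-Exp than in MN-Ctrl, and no direction is read for that list. ALDH1A2, the retinoic acid synthesis enzyme, led at 50.0 and 41.4 CPM in MN-Exp against 0.980 and 0.749 CPM in MN-Ctrl (adjusted p = 4.35e-05). It ran from 31.3 to 34.4 CPM in MNB and from 129 to 139 CPM in NP. The other higher marker, HAS1, averaged 4.71 CPM in MN-Exp, 0.05445 CPM in MN-Ctrl, 3.19 CPM in NP and 7.60 CPM in MNB. Against NP, 6 of the 8 mesothelial markers were lower and 1 higher in MN-Exp, beside 11.8% of all genes called as lower and 12.4% as higher.

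**Figure D4:**
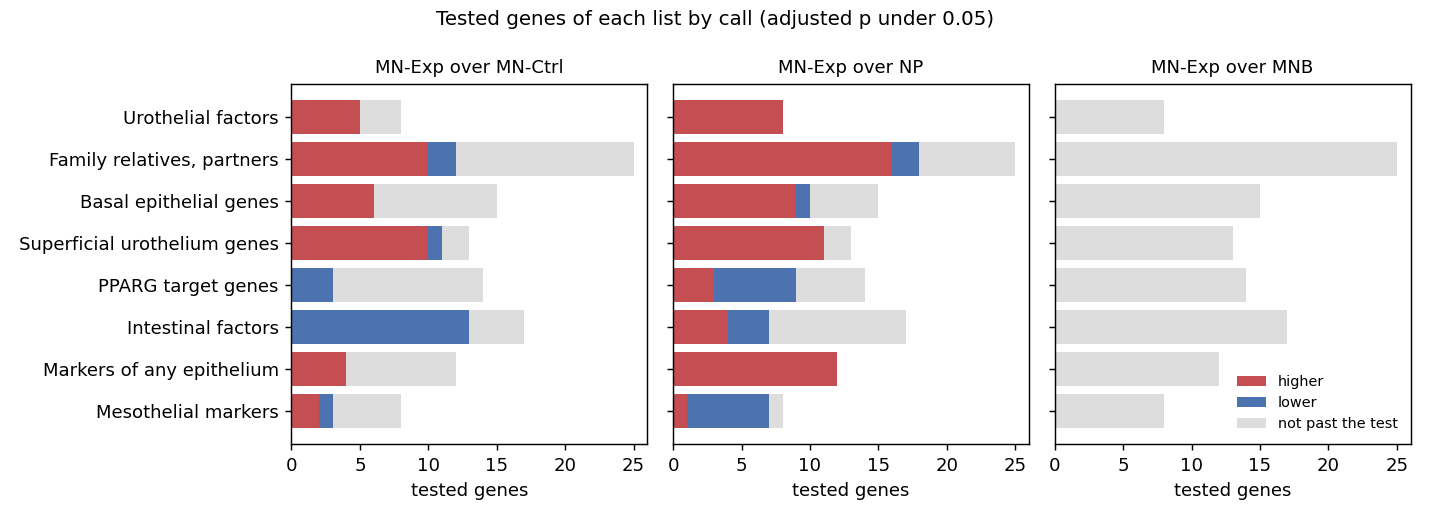
Number of tested genes (x axis) per list that were higher (red), lower (blue) or not past an adjusted p under 0.05 (grey) in 3 comparisons. Between the neobladders 5 of 8 urothelial factors and 10 of 13 superficial genes are higher and 13 of 17 intestinal factors lower. Over all genes 10.4% are higher and 11.3% lower there. Between MN-Exp and MNB 0.0967% of all genes are called and no gene of any list, so the absence of calls sets no list apart.

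Finally, the genes whose level across the 8 libraries was most like that of each factor were listed, by Pearson correlation of log2 CPM among 12435 tested genes with a symbol. The closest genes reached correlations of 0.984 to 0.998, which describe 4 groups of like libraries and carry no test. PALM3 was closest to TP63 (0.998), TRIM29 to GRHL3 (0.998), SEMA3F to GATA3 (0.991), ADGRG2 to PPARG (0.995) and LRRC8E to FOXA1 (0.994). RAB27B was closest to ELF3 (0.996), SLC35A4 to KLF5 (0.990) and PYGB to TBX3 (0.984). The group means of PALM3 were 10.8 CPM in MN-Exp, 0.0544 CPM in MN-Ctrl, 0.102 CPM in NP and 13 CPM in MNB. RAB27B averaged 62.7 CPM in MN-Exp, 53.7 CPM in MN-Ctrl, 3.98 CPM in NP and 76.6 CPM in MNB, the order seen for ELF3. Next closest to PPARG were the retinoic acid receptor RARB (0.989) and the cytochrome CYP4B1 (0.988), the last at 1562 CPM in MN-Exp, 3.90 CPM in MN-Ctrl, 13.1 CPM in NP and 1559 CPM in MNB.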

How the data were processed

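RNA-seq was made from 8 libraries in 4 groups. Per the submitters' processing notes, reads went through Trim Galore, HISAT2 and HTSeq 0.11.1 with Sscrofa11.1. The deposited files hold raw read counts per Ensembl gene, and the strand setting is not given in the sources used here. If it was unstranded, antisense reads count toward a gene.

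Symbols came from a name table, which matched 15029 of 31907 genes. Counts were fitted for all 8 libraries in edgeR 4.0.16 (R 4.3.3) with TMM scaling, filterByExpr and the robust quasi-likelihood test. Benjamini-Hochberg adjustment ran over 16549 genes, with a threshold of 0.05 and 4 residual degrees of freedom. The SE is the log2 fold change divided by the square root of F, and 95% intervals use the fit's degrees of freedom. Libraries held 7.94 to 11.9 M counts, and counting intervals and floors (3 counts over a group's libraries) cover counting error only. Correlations used log2 CPM with a prior count of 2.

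The members and lists were chosen with earlier results of these data known. Genes named from a list are up to 4 with the smallest p between MN-Exp and MN-Ctrl, up to 2 with the smallest against MNB, and defining tissue markers, unless said otherwise. Alternatives were library totals alone, DESeq2 1.42.0, no filter, the 2 groups alone, a replicate block, leaving out each library, and levels relative to epithelial markers. The scripts were tested on simulated data. Some genes of the lists are counted but not reported here by name.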

Additional observations from a re-analysis of the deposited data

How the results depend on the processing

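The number of factors called was 5 between MN-Exp and MN-Ctrl and 0 between MN-Exp and MNB under every alternative other than leaving out a library. Leaving out 1 library of the compared groups moved the number of factors called in some fits, and it also moved the number over all genes. The 5 factors kept their direction between the neobladders, while in MN-Exp over NP each such fit lost some of the 8 calls. Such a fit leaves a lone library in 1 group. Its counts of calls are not set against those of all 8 libraries. Without filter 352 genes of all were called between MN-Exp and MNB, by DESeq2 249 and with the 2 groups alone 453, against 16 as reported, with 0 factors called each time.

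The sign changes that follow concern values not called as reported. On library totals alone, which moved the median of all genes between MN-Exp and MN-Ctrl to 0.89 on the log2 scale, TBX3 stood at 0.26 in MN-Exp over MN-Ctrl, -0.27 in MN-Ctrl over MNB and -0.0171 in MN-Exp over MNB, and GRHL3 at -0.28 in MN-Ctrl over NP. That scaling called 2791 genes as higher and 830 as lower in MN-Exp than in MN-Ctrl, against 1720 and 1864. With 1 library left out, MN-Exp over MNB ran between -0.40 and 0.18 for GATA3, -0.25 and 0.68 for GRHL3, -0.12 and 0.69 for KLF5, -0.0944 and 0.27 for TBX3, and -0.44 and 0.15 for TP63. MN-Ctrl over NP ran between -0.38 and 3.74 for GRHL3 and -3.71 and 3.63 for TP63. MN-Ctrl over MNB ran between -1.69 and 0.0427 for KLF5 and -1.85 and 1.14 for TBX3, and MN-Exp over MN-Ctrl between -1.06 and 1.93 for TBX3. The causes were not tested.

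Relative to markers of any epithelium, the log2 ratio of NP over MNB was 3.07 for GATA3, 3.81 for KLF5, 3.29 for PPARG and 3.56 for TBX3. All of these were below 0 as scaled CPM. The marker sum was only 72.1 and 144 CPM in NP, against 6400 and 4803 CPM in MNB. These ratios are therefore not read as levels in peritoneal epithelium.

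Deviations of same-numbered libraries correlated between -0.0795 and 0.0911 over 6 pairs of groups. With 2 libraries a group and different tissues, these correlations cannot decide whether same-numbered samples share an animal. With a replicate block TBX3 lost its call in MN-Exp over NP (adjusted p = 0.0529), leaving 7 factors, no other count of factors changed, and GRHL3 stood at -0.0529 in MN-Exp over MNB.

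With 2 libraries a group the printed intervals bound what can be read of uncalled factors, and TP63 below 3 counts cannot be ranked between MN-Ctrl and NP.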
